A study of Mus musculus with 4 samples.

Results

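Genes of protein folding and stress signalling in the endoplasmic reticulum were followed in bulk poly-A RNA of 4 mammary gland tumours. All tumours had the genotype MMTV-R26Met, used as a model of triple-negative disease: the MMTV promoter, active in mammary epithelium, serves to turn on a Met transgene placed at Rosa26. The tumours, numbered 1 to 4, form 1 group without normal, untreated or control tissue, and neither the age of the mice nor whether each tumour came from its own mouse is given. The 31 genes were chosen by name for their known roles as chaperones, isomerases, degradation factors and members of the stress pathways. Earlier results of these data were known when they were chosen. All 31 were found among the 28440 rows of the count table. Each of them passed the filter on low counts, which left 15808 genes for testing. They held 0.728, 0.884, 0.835 and 0.753% of the counts of tumours 1 to 4 (exact binomial 95% intervals 0.726 to 0.731, 0.881 to 0.887, 0.832 to 0.838 and 0.750 to 0.755%, which cover counting error only).

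Proteins that enter the endoplasmic reticulum through the Sec61 channel are folded by chaperones such as BiP (Hspa5) and by disulfide isomerases, and chains that fail to fold are returned to the cytosol for degradation. Its membrane holds 3 sensors of this process. IRE1 (Ern1) splices the mRNA of Xbp1, PERK (Eif2ak3) slows translation and thereby favours synthesis of ATF4, and ATF6 is cut in the Golgi to release a transcription factor. Secretory epithelium such as that of the lactating mammary gland depends on this machinery. Splicing of Xbp1, translation of Atf4 and cutting of ATF6 do not appear in counts per gene, so only the mRNA level of each gene is described.

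The promoters of several of these genes carry letters through which the sensors are known to act. The sites are shown because ERSE is the known element of ATF6 and XBP1 in chaperone genes, and CARE that of ATF4. Windows of 300 bases (250 before to 50 after the RefSeq start, build GRCm38.p6) were held for 28 of the 31 genes, all but Hyou1, Manf and Atf6. They were searched on both strands for 4 motifs. ERSE, the endoplasmic reticulum stress response element, was searched as CCAAT and CCACG with any 9 bases between them, of which NF-Y binds the first part and ATF6 the second. ERSE-II was searched as ATTGG, any base and CCACG, UPRE, a site of XBP1, as TGACGTGG, and CARE, the site of ATF4 with C/EBP factors, as TGATGNAA. CCACG is part of ERSE and ERSE-II, and its reverse complement is part of UPRE, but no sites of different motifs shared bases in these promoters. Matches upstream of the start are printed 5′ to 3′ on the strand of the gene, the motif in capitals with 5 bases on each side.
Hspa5 ERSE, chr2:34772020-34772048, plus strand: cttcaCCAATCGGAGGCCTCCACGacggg
Hsp90b1 distal ERSE, chr10:86705633-86705661, minus strand: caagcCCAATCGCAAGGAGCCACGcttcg
Hsp90b1 proximal ERSE, chr10:86705528-86705556, minus strand: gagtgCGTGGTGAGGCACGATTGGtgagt
Calr ERSE, chr8:84847070-84847098, minus strand: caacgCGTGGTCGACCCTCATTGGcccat
Canx ERSE, chr11:50325795-50325823, minus strand: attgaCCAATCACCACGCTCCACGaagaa
Dnajc3 ERSE, chr14:118937822-118937850, plus strand: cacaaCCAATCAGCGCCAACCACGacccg
Creld2 ERSE, chr15:88819515-88819543, plus strand: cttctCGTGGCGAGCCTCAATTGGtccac
Pdia6 ERSE, chr12:17266486-17266514, plus strand: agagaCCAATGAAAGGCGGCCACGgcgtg
Syvn1 ERSE, chr19:6046527-6046555, plus strand: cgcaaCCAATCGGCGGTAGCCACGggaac
Herpud1 ERSE-II, chr8:94386372-94386392, plus strand: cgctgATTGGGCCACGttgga
Herpud1 CARE, chr8:94386312-94386329, plus strand: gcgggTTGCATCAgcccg
Chac1 CARE, chr2:119351044-119351061, plus strand: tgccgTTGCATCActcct
Asns CARE, chr6:7693220-7693237, minus strand: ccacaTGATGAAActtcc

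ERSE was found in 8 of the 28 genes with a window, against 37 (0.137%) of the 27025 genes in the table of promoters. Its matches began between position -212 (the distal site of Hsp90b1) and position -44 (Syvn1) relative to the start, and the match of Hspa5 spanned -65 to -47. The proximal Hsp90b1 site and the sites of Calr and Creld2 lay in the reverse orientation. ERSE-II was found in Herpud1 and Dnajb11, where it lay at 8 to 18 bases past the start, against 12 genes (0.0444%) in all. CARE was found in Herpud1, Chac1, Asns and Trib3, where it lay at 15 to 22 bases past the start, against 4.51% of all genes. UPRE was found in none of the 28 windows and in 0.714% of all genes. ERSE and CARE are known elements of these pathways and the genes were chosen for roles in them, so higher shares than over all genes are no separate result. A match describes the letters in these windows and not binding.

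**Figure D1:**
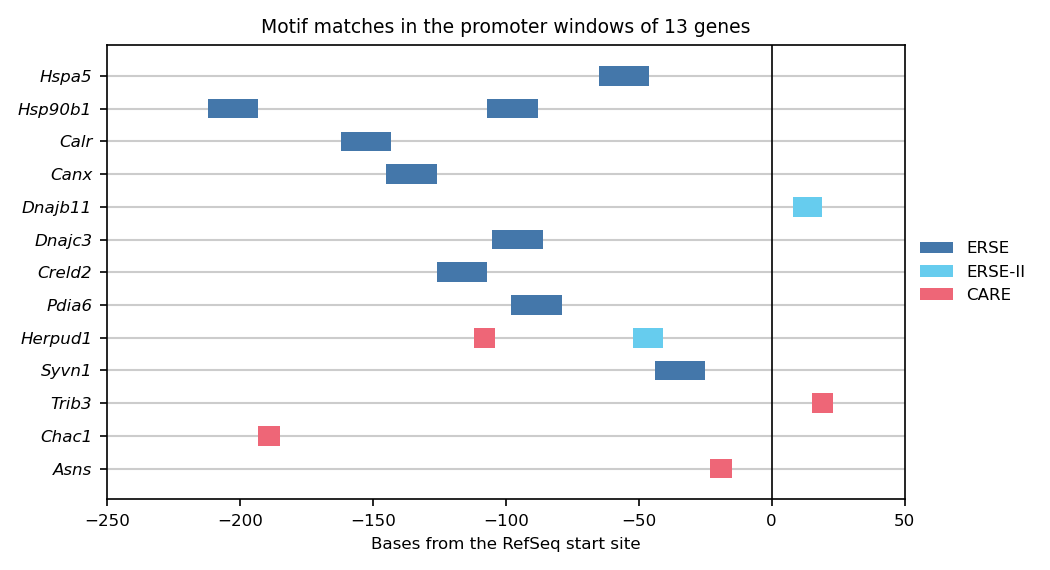
Positions of ERSE, ERSE-II and CARE matches (coloured bars) in the promoter windows of the 13 genes with a match, in bases from the RefSeq start site (vertical line). The ERSE bars lie between -212 and -26, and the matches of Dnajb11 and Trib3 lie past the start.

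Per length of annotated exons, the most abundant of the 31 mRNAs were P4hb, Xbp1, Hspa5, Calr and Hsp90b1. CPM, counts scaled to the size of each library with TMM factors from edgeR, were divided by the kilobases of annotated exon for this order alone. P4hb, the founding protein disulfide isomerase, stood at 322 ± 42.8, Xbp1 at 302 ± 120, Hspa5 at 247 ± 50.7, Calr at 227 ± 42.8 and Hsp90b1 at 215 ± 22.4 CPM per kilobase (SD, n = 4). Neighbours in this order of 5 differed by less than the larger SD of the pair. A second tier held Pdia4, Canx and Pdia3 at 139 ± 35.9, 134 ± 16.6 and 127 ± 15.7 CPM per kilobase, followed by Pdia6 (99.8 ± 32.5) and Atf4 (97.4 ± 3.83). The sensors and Ddit3 were scarce by the same measure, in contrast to Xbp1 and Atf4, with Atf6 at 10.1 ± 0.411, Eif2ak3 at 7.83 ± 2.94, Ern1 at 6.70 ± 0.799 and Ddit3 at 6.54 ± 2.48 CPM per kilobase. Other genes lay in this range too: Atf5 at 9.66 ± 1.65, Ppp1r15a at 7.72 ± 0.704 and Dnajb9 at 7.27 ± 2.48. Syvn1 lay below it at 5.75 ± 1.01. Lowest of all was Chac1, an enzyme that degrades glutathione, at 2.52 ± 1.13 CPM per kilobase.

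**Figure D2:**
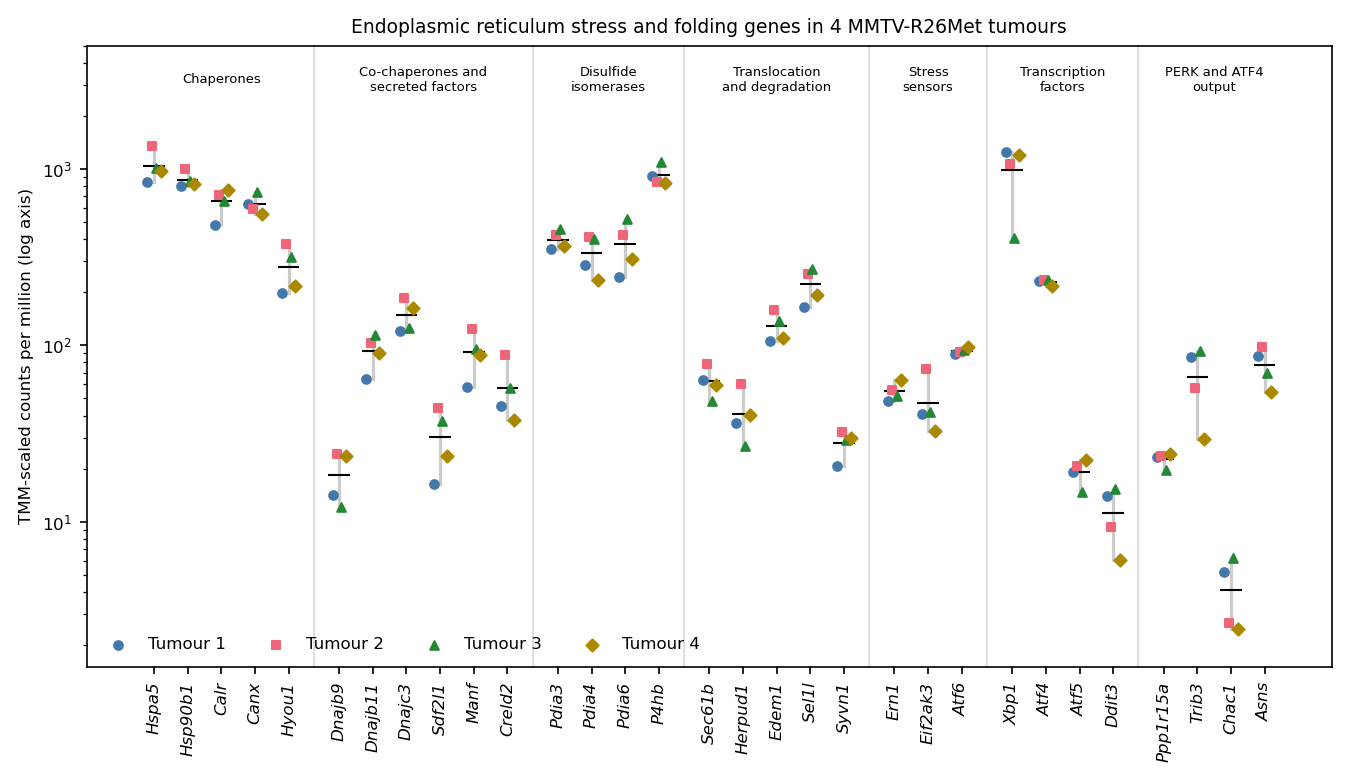
CPM (log axis) of each of the 31 genes in tumours 1 to 4 (symbols), grouped by role. Black bars are means over the 4 tumours and grey lines join the lowest and highest tumour. Xbp1 in tumour 3 (408 CPM) and Trib3 in tumour 4 (29.5 CPM) sit apart from their other values, whereas the 4 symbols of Atf4 and Atf6 nearly coincide.

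No gene of the 31 passed the test of spread, which asks whether the tumours differ more in a gene than the trend over genes of that level. By edgeR, 0 of 31 passed at a Benjamini-Hochberg adjusted p of 0.05, while 574 (3.63%) of 15808 genes did. At an unadjusted p below 0.05 the count was also 0 of 31, against 8.74% of all genes, and DESeq2's rule for dispersion outliers marked 0 of 31 and 91 genes in all. The lowest p was that of Trib3 (edgeR adjusted p = 0.843, unadjusted 0.0896). The median range, given as the highest over the lowest tumour, was 1.64-fold over the 31 genes and 1.72-fold over all genes tested, and 10 of 31 spanned over 2-fold, against 36.1% of all. The widest range of the 31 was 3.14-fold (Trib3), and on simulated counts the test found only 18.4% of genes changed 3-fold. These p-values therefore do not show that the tumours express the genes alike, and the differences below are given as values of 4 tumours.

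**Figure D3:**
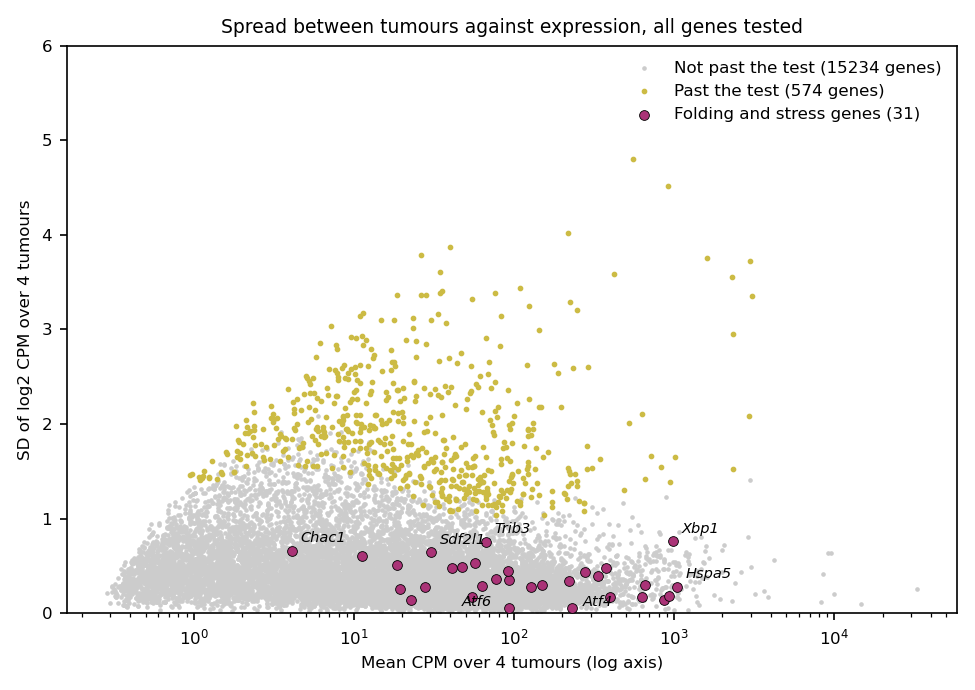
SD of log2 CPM over the 4 tumours against mean CPM (log axis) for the 15808 genes tested. The 574 genes past the test (yellow) all have a larger SD than the 31 folding and stress genes (purple), of which Xbp1 and Trib3 have the widest spread and Atf4 and Atf6 the narrowest.

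The direction of these differences was shared by much of the group. Tumour 2 was the highest of the 4 for 16 of 31 genes, against 18.9% of all genes tested, and the lowest for 0 of 31, against 19.7%. Tumour 1 was the lowest for 15 of 31 (24.8% of all genes) and the highest for 1, Xbp1 (22.9%). Tumour 3 was highest for 9 (29.7%) and lowest for 6 (27.7%), and tumour 4 was highest for 5 (28.5%) and lowest for 10 (27.8%). Margins were narrow: tumour 2 exceeded the next tumour by 1.00-fold (Atf4) to 1.73-fold (Eif2ak3), with a median of 1.18-fold over the 16 genes. The median deviation of the 31 genes from their own mean was -0.16, 0.23, 0.07 and -0.09 on the log2 scale in tumours 1 to 4, whereas over all genes tested it was -0.01, 0.00, 0.01 and 0.00. Single tumours moved these medians: without tumour 2, that of tumour 1 was -0.05 and that of tumour 4 -0.04, and without tumour 1, those of tumours 2, 3 and 4 were 0.13, -0.001 and -0.18. The genes share regulators and were measured in the same 4 libraries, so they are not 31 separate observations. They were also chosen with earlier results of these data known, so the shares over all genes are given for scale only.

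Markers of other cell types also differed between these tumours. The epithelial markers Epcam, Krt8, Krt18 and Cdh1 summed to 2283, 3430, 2983 and 3504 CPM in tumours 1 to 4, so tumour 1 was lowest here too. Ptprc, the pan-leukocyte gene, had 67.4, 93.6, 78.6 and 76.0 CPM, and the macrophage markers Adgre1, Csf1r and Cd68 summed to 166, 237, 165 and 193 CPM, both highest in tumour 2. Adipocyte markers (Adipoq and Plin1) summed to 5.09 CPM in tumour 2 and to 0.261 to 0.513 CPM in the others. Basal epithelial markers (Krt5, Krt14 and Trp63) summed to 6.32, 20.45, 31 and 223.7 CPM in tumours 1 to 4. All 3 passed the test of spread (3.63% of all genes tested). Fibroblast markers (Col1a1, Pdgfra and Dcn) summed to 649, 804.5, 1016 and 1380 CPM, highest in tumour 4. Endothelial markers (Pecam1 and Cdh5) summed to 101, 72.0, 77.1 and 57.25 CPM, highest in tumour 1. The part of these cells in the results was not tested, and fewer cells of a type cannot be told apart from less RNA per cell. Plasma cells, which are rich in endoplasmic reticulum, left few counts. Their 7 markers summed to 5.42, 14.3, 4.26 and 12.2 CPM, nearly all from Jchain and Ighm, while Iglc1 had 0 counts in every tumour, Igkc 4 counts in tumour 2 and 0 elsewhere, Tnfrsf17 at most 6, Mzb1 at most 12 and Pou2af1 at most 12 counts. A count of 0 allows up to 0.0708 to 0.0868 CPM in these libraries.

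Of the 5 chaperones, 3 were highest in tumour 2 (18.9% of all genes tested) and 4 were lowest in tumour 1 (24.8%). Hspa5 (chromosome 2, 34772090 to 34776529, GRCm38), the Hsp70 of the endoplasmic reticulum, had 843, 1346, 1014 and 972 CPM in tumours 1 to 4, a 1.60-fold range. Hyou1, a nucleotide exchange factor of Hspa5, had 198, 377, 316 and 216 CPM. Hsp90b1, the Hsp90 of this compartment, had 800, 998, 850 and 817 CPM. These 3 genes ranked the tumours 2, 3, 4 and 1 from high to low, as did Sdf2l1, Manf and Edem1, making 6 of 31 against 2.43% of all genes tested. The order was taken from the values of these same genes, so that share is given for scale and is no test. The lectin chaperones departed from that order. Calr (calreticulin) had 480, 713, 661 and 762 CPM and was highest in tumour 4, and Canx (calnexin) had 633, 591, 737 and 556 CPM and was highest in tumour 3. Of the exon bases of Hsp90b1, 15.7% overlap other gene models, and since the use of strand in counting is not given, some of its counts could belong to those.

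Co-chaperones and small secreted proteins were highest in tumour 2 in 5 of 6 cases, against 18.9% of all genes tested. Their median range was 2.06-fold, against 1.59-fold for the chaperones. Sdf2l1, which works with Hspa5 and its J-domain partner Dnajb11, had 16.4, 44.1, 37.3 and 23.6 CPM, a 2.69-fold range with tumours 2 and 3 above tumours 4 and 1. Manf, a stress-induced protein that binds Hspa5, had 58.4, 124, 94.7 and 88.3 CPM, and 9.25% of its exon bases overlap other gene models. Creld2, another stress-induced folding factor, had 45.5, 88.6, 57.6 and 37.6 CPM, so that tumour 2 stood above the others. For the J-domain proteins the picture was mixed. Dnajb9, which holds IRE1 inactive through Hspa5, had 14.1, 24.2, 12.1 and 23.7 CPM, with tumours 2 and 4 high. Dnajb11 was highest in tumour 3 (114 CPM) and Dnajc3, an inhibitor of PERK, in tumour 2 (184 CPM), each being lowest in tumour 1 (64.8 and 121 CPM). The median deviation of the 6 genes was -0.41 in tumour 1 and 0.47 in tumour 2.

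Of the 4 disulfide isomerases, 3 were highest in tumour 3, against 29.7% of all genes tested. Pdia6, which also acts on the sensors themselves, had 245, 423, 519 and 307 CPM, a 2.11-fold range. P4hb had 905, 846, 1098 and 833 CPM, and Pdia3, the partner of calnexin and calreticulin, had 350, 420, 456 and 365 CPM. Pdia4 had 287, 411, 398 and 234 CPM, with tumours 2 and 3 close together at the top. P4hb and Pdia3 spanned only 1.32-fold and 1.30-fold.

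Genes of translocation and of endoplasmic reticulum-associated degradation (ERAD) were again highest in tumour 2 in 4 of 5 cases (18.9% of all genes tested). Herpud1, a stress-induced organiser of the ERAD complex, had 36.2, 60.3, 26.8 and 40.4 CPM, a 2.25-fold range. Syvn1, the ubiquitin ligase of the complex, had 20.8, 32.1, 28.9 and 29.9 CPM, and its partner Sel1l had 165, 255, 271 and 194 CPM. Tumour 1 was lowest for both of these partners, while the tumour at the top differed. Edem1, a lectin that directs glycoproteins to degradation, had 106, 159, 138 and 110 CPM. The channel subunit Sec61b had 63.8, 78.5, 48.5 and 60.0 CPM, the lowest value being in tumour 3, as for Herpud1. Over the 20 chaperone, co-chaperone, isomerase, translocation and degradation genes, the median deviation was -0.28, 0.33, 0.11 and -0.10 in tumours 1 to 4. Of these, 13 of 20 were highest in tumour 2 (18.9% of all genes tested) and 13 of 20 lowest in tumour 1 (24.8%).

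**Figure D4:**
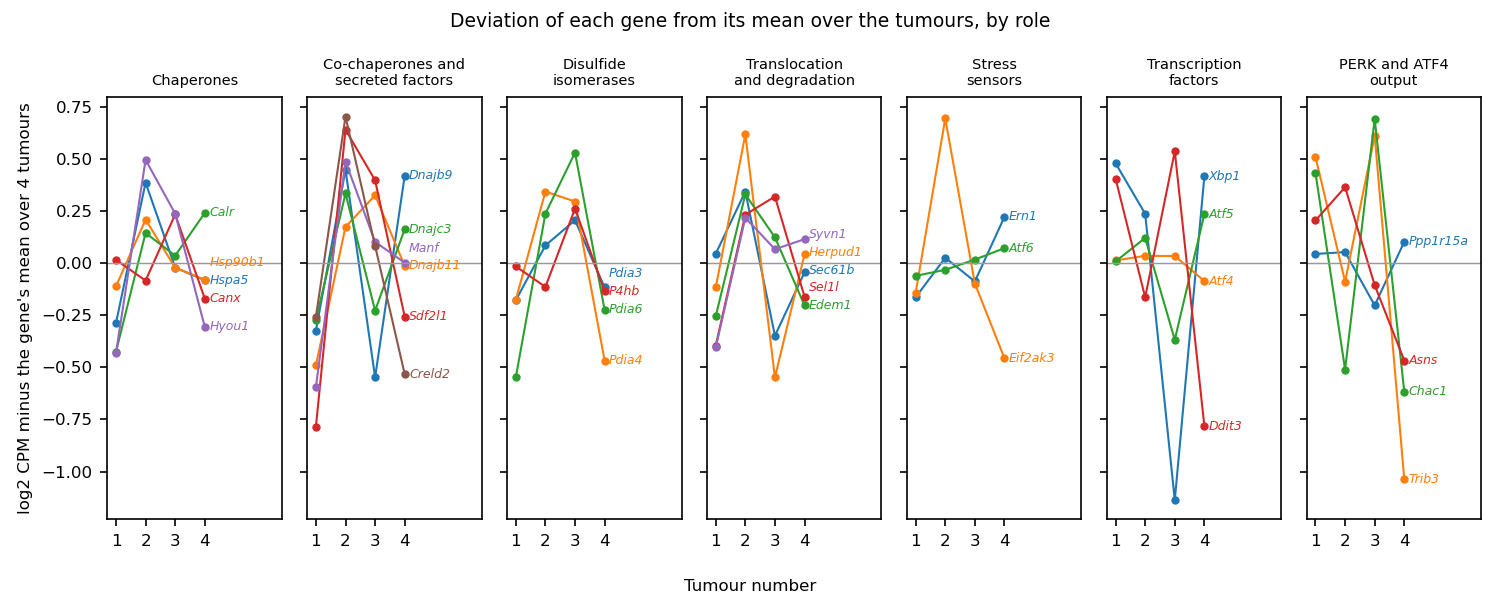
Log2 CPM of each gene minus its mean over the 4 tumours, in 7 panels by role. Lines join the values of a gene and imply no order of the tumours. Tumour 2 is at or near the top for most folding genes, tumour 3 is the low point of Xbp1, and tumour 4 is the low point of Trib3, Ddit3, Chac1 and Asns.

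The mRNAs of the 3 sensors did not follow 1 order. Eif2ak3 was highest in tumour 2 and lowest in tumour 4, while Atf6 and Ern1 were lowest in tumour 1. For Atf6 the Poisson 95% intervals of tumours 1 and 2 overlapped (86.6 to 92.4 and 88.1 to 94.5 CPM). Those of tumours 3 and 4 overlapped too (91.36 to 97.55 and 95.09 to 101.2 CPM), so counting error leaves its highest tumour unsettled. Atf6 had 89.5, 91.3, 94.4 and 98.1 CPM, a 1.10-fold range, and the SD of its log2 CPM (0.06) was at the 0.7 percentile of the genes tested. Ern1 had 48.6, 55.5, 51.3 and 63.6 CPM. Both were highest in tumour 4. Eif2ak3 had 40.8, 73.0, 42.1 and 32.8 CPM and stood 1.73-fold higher in tumour 2 than in the next tumour, the widest such margin among the genes highest there. Of its exon bases, 8.05% overlap another gene model.

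Among the transcription factors, Xbp1 had the widest range and Atf4 the narrowest. Xbp1 (chromosome 11, 5520641 to 5525993, GRCm38), which drives genes of folding, secretion and ERAD, had 1253, 1059, 408 and 1199 CPM in tumours 1 to 4, a 3.07-fold range (edgeR adjusted p = 1). Tumour 3 was low and the other tumours lay close together, although tumour 3 was highest for Pdia3, Pdia6, P4hb, Dnajb11 and Sel1l. Tumour 1, highest for Xbp1, was lowest for 15 of the other genes. Atf4 had 232, 236, 235 and 216 CPM, a range of 1.09-fold. Atf5, a related factor induced in the same response, had 19.2, 20.7, 14.7 and 22.4 CPM and was lowest in tumour 3. Ddit3, which encodes the pro-apoptotic factor CHOP, had 14.0, 9.40, 15.3 and 6.11 CPM, with tumours 3 and 1 above tumours 2 and 4. Gene models that overlap Ddit3 and Atf5 cover 10.9 and 8.23% of their exon bases.

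Of the 4 genes of PERK and ATF4 output, 3 were lowest in tumour 4, against 27.8% of all genes tested. The 28 other ATF4 targets tested did not follow them, with 6 lowest and 10 highest in tumour 4 (27.8 and 28.5% of all genes). Their median deviation there was 0.11, against -0.54 for the 4 genes. Trib3 (chromosome 2, 152337425 to 152344060, GRCm38), a pseudokinase that is induced by ATF4 and CHOP and restrains ATF4, had 86.3, 57.0, 92.7 and 29.5 CPM, a 3.14-fold range. Chac1 had 5.17, 2.66, 6.20 and 2.47 CPM, of which the lowest 2 rest on 92 counts in tumour 2 and 101 in tumour 4. Its Poisson 95% intervals were 2.15 to 3.26 CPM in tumour 2 and 2.01 to 3.00 CPM in tumour 4 and overlap. Ddit3, Trib3 and Chac1 ranked the tumours 3, 1, 2 and 4 from high to low, as did Canx and P4hb, making 5 of 31 against 8.14% of all genes tested. This order too was taken from the values of the 31 genes, so the share is for scale only. Asns, asparagine synthetase, had 87.0, 97.3, 70.1 and 54.6 CPM. Ppp1r15a (GADD34), which reverses the translational block of PERK, had 23.3, 23.5, 19.6 and 24.3 CPM, a range of 1.24-fold. Tumour 2, highest for most folding genes, was thus not the tumour highest for Ddit3, Trib3 or Chac1.

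Few of the 31 genes were over 2-fold apart in any pair of tumours. Between tumours 1 and 2 these were Sdf2l1 and Manf, against 10.5% of all genes tested. Sdf2l1, Pdia6 and Xbp1 were over 2-fold apart between tumours 1 and 3 (13.9% of all genes), and Ddit3, Trib3 and Chac1 between tumours 1 and 4 (18.0%). Between tumours 2 and 3 the genes were Herpud1, Xbp1 and Chac1 (17.4%), and between tumours 2 and 4 they were Creld2 and Eif2ak3 (11.6%). Tumours 3 and 4 had the most, 4 of 31, namely Xbp1, Ddit3, Trib3 and Chac1 (21.6%). Counting error alone is small beside these ranges, since the relative Poisson error of a single value was at most 10.4%, for Chac1 in tumour 2.

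Genes with a motif match were compared with those without. Of the 10 genes with ERSE or ERSE-II, 6 were highest in tumour 2 and none lowest there, with a median range of 1.59-fold. Among the 18 genes with a window and neither motif, 8 were highest in tumour 2 and 0 lowest, with a median range of 1.70-fold. Tumour 2 was thus the highest for much of either set, whereas it was highest for 18.9% and lowest for 19.7% of all genes tested. The 4 genes with CARE were highest in tumour 2 (Herpud1 and Asns) or tumour 3 (Trib3 and Chac1).

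Of 133 further genes of the same pathways, 131 were tested. By edgeR 3 of them passed at an adjusted p of 0.05, against 3.63% of all genes, and 9 had an unadjusted p below 0.05, against 8.74%. DESeq2 marked 0 of the 131. Sel1l3, a relative of Sel1l, had 0.401, 3.59, 12.1 and 1.54 CPM (edgeR adjusted p = 0.0094). Phgdh, which opens serine synthesis and is a target of ATF4, had 92.9, 67.3, 97.0 and 13.9 CPM (edgeR adjusted p = 0.0316). Gpt2, a mitochondrial transaminase also induced by ATF4, had 38.5, 53.2, 9.52 and 90.7 CPM (edgeR adjusted p = 0.0123). The low tumour was therefore a different one for each gene: tumour 1 for Sel1l3, tumour 4 for Phgdh and tumour 3 for Gpt2. Each call was lost when particular tumours were left out: Sel1l3 without tumour 1 or 3 (edgeR adjusted p = 0.376 and 0.254), Phgdh without tumour 1, 2 or 4 (0.0534, 0.0512 and 1) and Gpt2 without tumour 3 or 4 (1 and 0.0858).

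By role, 0 of 22 oxidative folding genes passed (1 at an unadjusted p below 0.05, edgeR), the largest SD being that of the oxidase Ero1a at 232, 74.6, 366 and 152 CPM (edgeR adjusted p = 0.194). Among 12 co-chaperones 0 passed (1 unadjusted), with Serpinh1, the collagen chaperone, at 542, 374, 421 and 97.7 CPM (edgeR adjusted p = 0.178). In the remaining groups, 0 of 17 genes of glycan processing (1 unadjusted), 1 of 20 of ERAD (Sel1l3), 0 of 16 of the translocon (0 unadjusted), 0 of 16 of the signalling genes (1 unadjusted) and 2 of 28 ATF4 targets (Phgdh and Gpt2) passed. Sec61a1, the pore of the channel, had 350, 427, 426 and 377 CPM, a 1.22-fold range. Vcp, the ATPase that extracts ERAD substrates, had 356, 498, 393 and 608 CPM, a 1.71-fold range with tumour 4 highest. The 131 genes as a group had median deviations of -0.01, 0.04, -0.05 and -0.03 in tumours 1 to 4. Of them 26 were highest in tumour 2, near the share of all genes tested (18.9%).

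**Figure D5:**
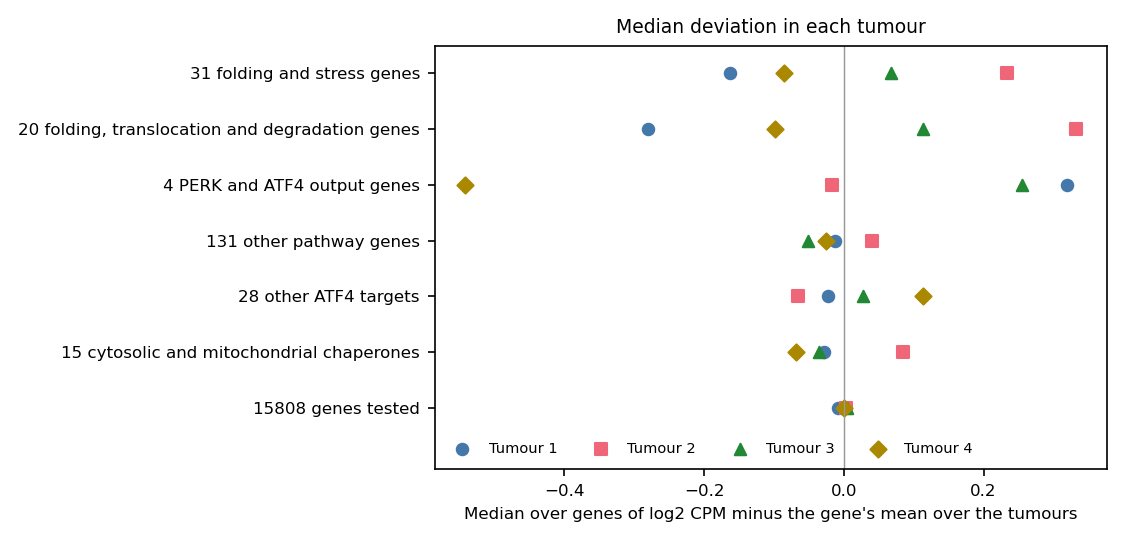
Deviation of log2 CPM from the mean of a gene, as the median over genes in each tumour (symbols), for the 31 folding and stress genes, 2 subsets of them, 131 other pathway genes, the 28 ATF4 targets among them, 15 chaperones of the cytosol and mitochondria and all genes tested. Tumour 2 is the highest and tumour 1 the lowest for the 31 genes, and tumour 4 is the lowest for the 4 genes of PERK and ATF4 output but the highest for the 28 other ATF4 targets.

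The 15 chaperones of the cytosol and mitochondria, compared as the nearest related group, had median deviations of -0.03, 0.09, -0.04 and -0.07. Of these, 6 of 15 were highest in tumour 2 (18.9% of all genes tested) and 3 of 15 lowest there (19.7%). By edgeR 0 of 15 passed, also at an unadjusted p below 0.05, and DESeq2 marked 0. Hspa8, the most abundant, had 2517, 3048, 2204 and 1795 CPM. Milk proteins, the main secretory load of lactating mammary epithelium, were set beside the folding genes for scale. The 8 milk protein genes summed to 316, 6075, 2990 and 32840 CPM in tumours 1 to 4, while the 5 chaperones summed to 2954, 4025, 3578 and 3324 CPM and the 4 isomerases to 1787, 2100, 2471 and 1739 CPM. Tumour 4, with the most milk protein mRNA, was not the highest in either sum. Tumour 1, with the least, was the lowest in chaperones and stood just above tumour 4 in isomerases. The 6 co-chaperones summed to 320, 568, 441 and 427 CPM and the 5 translocation and degradation genes to 392, 585, 513 and 434 CPM. Tumour 1 was lowest in both of these sums. A link between milk protein and folding genes was not tested.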

How the data were processed

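Per the labels' protocols, poly-A RNA of the 4 tumours was fragmented, copied by random priming and sequenced as paired reads. The authors deposited whole-number counts per Entrez gene, without normalization. Per the submitters' processing notes, the tools and builds named are FastQC, GRCm38 and mm10. The aligner, counter, annotation and strand setting were not given in the sources used here. Library totals were 42809015, 35220504, 36885892 and 41756363 counts, and no pair of libraries agreed within counting error (chi-square per gene 153 to 455). Symbols came from the RefSeq table of GRCm38.p6 (24480 of 28440 rows), and exon lengths from GENCODE M21.

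The deposited counts were fitted in edgeR 4.0.16 (R 4.3.3): filterByExpr with 1 group (10 counts at the median library size, 15 in total), TMM, log2 CPM with a prior count of 2, and an intercept-only fit at the trended dispersion whose deviance was compared with chi-square (3 degrees of freedom), Benjamini-Hochberg adjusted over 15808 genes. The p-values describe the spread between these samples only. On simulated counts the test found 18.4% of genes changed 3-fold, 40.4% of those changed 4-fold, 66% at 8-fold and 98% at 16-fold. Members and gene lists were chosen with earlier results of these data known. All 31 members could be named; of other pathway genes, those past the test and those of widest spread or highest mean in a list; Dnajc10, Fkbp9, Mthfd2, Derl3, Ero1b and Alg12 fall outside this rule and were named after their values were seen. Alternatives were RLE scaling, library size alone, no filter, a mean of at least 5 CPM, common dispersion, DESeq2 1.42.0, prior counts of 0.5 and 5, means over members, and leaving out each tumour. The B cell genes, the marker list not given above, summed to 0.566, 0.260, 0.941 and 0.342 CPM in tumours 1 to 4.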

Additional observations from a re-analysis of the deposited data

Results flagged for a closer look

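Xbp1 was the 1 gene of the 31 in which a single tumour stood far from the others. The gap between tumour 3 and the next tumour took up 0.85 of the whole range of its log2 CPM, above Dixon's 95% critical value for 4 samples. Chance alone would mark about 1 in 20 genes in this way, so 1 of 31 is no more than chance would give.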

How the results depend on the processing

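The count of 0 of 31 genes past the test held under every alternative run (RLE scaling, library size alone, no filter, a mean of at least 5 CPM, where 30 genes were tested, common dispersion, DESeq2 and leaving out each tumour), although without tumour 3 Trib3 and without tumour 4 Xbp1 had an unadjusted p below 0.05 (0.0458 and 0.0366 by edgeR, adjusted 0.656 and 0.587). Over all genes, 895 passed without the filter on counts, where 23632 genes were tested, and 91 by DESeq2, against 574. With a tumour left out the number was 367 (without tumour 4) to 417. The 3 other pathway genes past the test became 1 under common dispersion, 0 by DESeq2 and 1 or 2 with a tumour left out. Sel1l3 did not pass without the filter. With a mean of 4.39 CPM it fell below the filter at a mean of at least 5 CPM and was not tested there. The 10 of 31 genes over 2-fold apart (36.1% of all genes tested) became 6 or 7 with a tumour left out, and 6 without tumour 2 or 4. Over all genes tested the share fell as well, to 29.5, 31.8, 24.6 and 25.4% without tumours 1, 2, 3 and 4. Which tumour was highest was tallied after seeing the data: tumour 2 was highest for 14 to 16 genes under the other scalings and filters and for 16 to 20 without another tumour (26 to 33.3% of all genes), and tumour 1 was lowest for 15 to 19 with another tumour left out (30.1 to 35.9%). Without tumour 2, tumour 3 was highest for 18 (32.8%). Leaving out a tumour moved the median deviations of the 31 genes: tumour 1 ranged from -0.184 to -0.045 (without tumour 2), tumour 2 from 0.125 (without tumour 1) to 0.236, tumour 3 from -0.001 (without tumour 1) to 0.127 and tumour 4 from -0.176 (without tumour 1) to -0.043. No paired analysis was possible because the tumours form 1 group.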

Other observations

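Several further genes of the pathway took the order of Ddit3, Trib3 and Chac1, with tumour 3 highest and then tumours 1, 2 and 4, which 15 of 131 did against 8.14% of all genes tested. Dnajc10, a reductase that aids ERAD, had 186, 138, 345 and 111 CPM in tumours 1 to 4, Fkbp9, a prolyl isomerase, had 116, 114, 200 and 58.8 CPM, and Mthfd2, a mitochondrial folate enzyme induced by ATF4, had 16.6, 13.6, 33.7 and 8.67 CPM. None of these 3 passed the test (edgeR adjusted p = 0.759, 0.841 and 1), and they were picked after their values were seen. Outside the 31 genes, ERSE was found in 29 promoters, of which 12 belonged to genes tested here, among them Derl3 and Ero1b of the pathway and Alg12, a mannosyltransferase of glycan assembly. Of these 12 genes 2 were highest in tumour 2 (18.9% of all genes tested) and 0 passed the test (3.63%).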
